A study of Mus musculus with 20 samples.

Results

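The 8 genes described here, Fabp7, Cadm1, Apoe, Glul, Slc1a3, Gja1, Gfap and Aqp4, are genes used to recognise satellite glial cells of the dorsal root ganglion (DRG, the swelling of a spinal nerve root that holds the bodies of its sensory neurons) and their reaction to nerve injury. They were chosen by symbol, all 8 were among the 78258 genes of the count table, and all 8 passed the filter on low counts that left 28564 genes for testing. RNA was measured in ganglia of lumbar levels 4 to 6 from 10 male mice, with 1 library from each side of each mouse. Per the labels, 5 conditional knockout (cKO) mice were Ahr fl/fl Thy1CRE-ERT2/EYFP, and 5 control mice were Ahr f/f or f/+. The library names of all 5 controls carry ff, while their titles read Wildtype. Beyond these names and titles, there was no statement of which control had which genotype. Ahr encodes the aryl hydrocarbon receptor, a ligand-activated transcription factor. All 10 mice, controls included, had received tamoxifen at 100 mg/kg once a day on 5 days at 17 weeks of age. The sciatic nerve was cut 4 weeks later and the ganglia were taken 1 day after the lesion, so the contralateral ganglia also came from lesioned animals. The Cre transgene was driven by Thy1, a promoter used for expression in neurons. Excision within satellite glia was not measured. The control mice were H62, H63, H65, H96 and H97, and the cKO mice were H61, H64, H95, H99 and H100; values below are listed in these orders.

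Satellite glia are neural crest-derived cells that wrap each sensory neuron body. They take up and recycle transmitter, buffer potassium and are joined to each other by gap junctions. After a peripheral nerve is cut they are known to turn on the intermediate filament gene Gfap and to couple more strongly. Whole ganglia were measured, so fewer cells of a type and less RNA per cell cannot be told apart, and several of the 8 genes are also used by Schwann cells, neurons or fibroblasts.

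Libraries held 76.2 to 118.5 M counts (M, mega). Levels are given as CPM, counts per M counts of the library, after TMM scaling, a correction for differences in library composition, and as mean ± SD over 5 mice. A gene was called changed at a Benjamini-Hochberg adjusted p under 0.05 in edgeR's quasi-likelihood test over all 28564 genes. Ahr itself, the targeted gene, was at 24.2 ± 2.10 CPM in control and 20.4 ± 0.536 in cKO contralateral ganglia, with no overlap between the groups (1.07% of all genes were lower without overlap), and the difference was not called (log2 fold change -0.25, adjusted p = 0.103). It was called with DESeq2 (-0.24, adjusted p = 0.0216) and by edgeR without mouse H99 (-0.25, adjusted p = 0.0353). Over all genes those fits called 1041 and 3326 contralaterally, against 21 with edgeR on all libraries. On the lesioned side Ahr was at 34.4 ± 2.86 and 31.9 ± 2.94 CPM, and the groups overlapped. The level in cKO ganglia was 0.840 times the control level contralaterally and 0.929 times ipsilaterally in the fit.

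Per kilobase of exon, Apoe had the highest level of the 8 genes, at a mean of 461.0 CPM per kb over the 20 libraries. Apoe encodes apolipoprotein E, a carrier of lipid between cells. Glul, the gene of glutamine synthetase, followed at 130.4 CPM per kb and Fabp7, a fatty acid binding protein of glia, at 107.7. The ranges of Glul, 94.7 to 155 CPM per kb, and of Fabp7, 82.6 to 131, overlapped over libraries. Cadm1, a cell adhesion molecule, was at 40.05 CPM per kb, with its lowest library at 35.5 above the highest library of the next gene. Gja1, which encodes connexin 43, was at 3.60, Aqp4, the water channel aquaporin 4, at 2.22, and Slc1a3, the glutamate transporter GLAST, at 1.58 CPM per kb. The ranges of Gja1 and Aqp4, 2.54 to 5.78 and 1.88 to 2.71, met at their ends, whereas every Slc1a3 library, 1.38 to 1.87, was below every Aqp4 library. Gfap was at 0.761 on average and had the largest ratio of highest to lowest library. It ranged from 0.106 to 3.24 CPM per kb, across the ranges of Slc1a3 and Aqp4 and into that of Gja1. Other genes of satellite glia were present in every group: the summed level of 20 further genes of the cell type was 2175 to 2815 CPM per library.

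**Figure D1:**
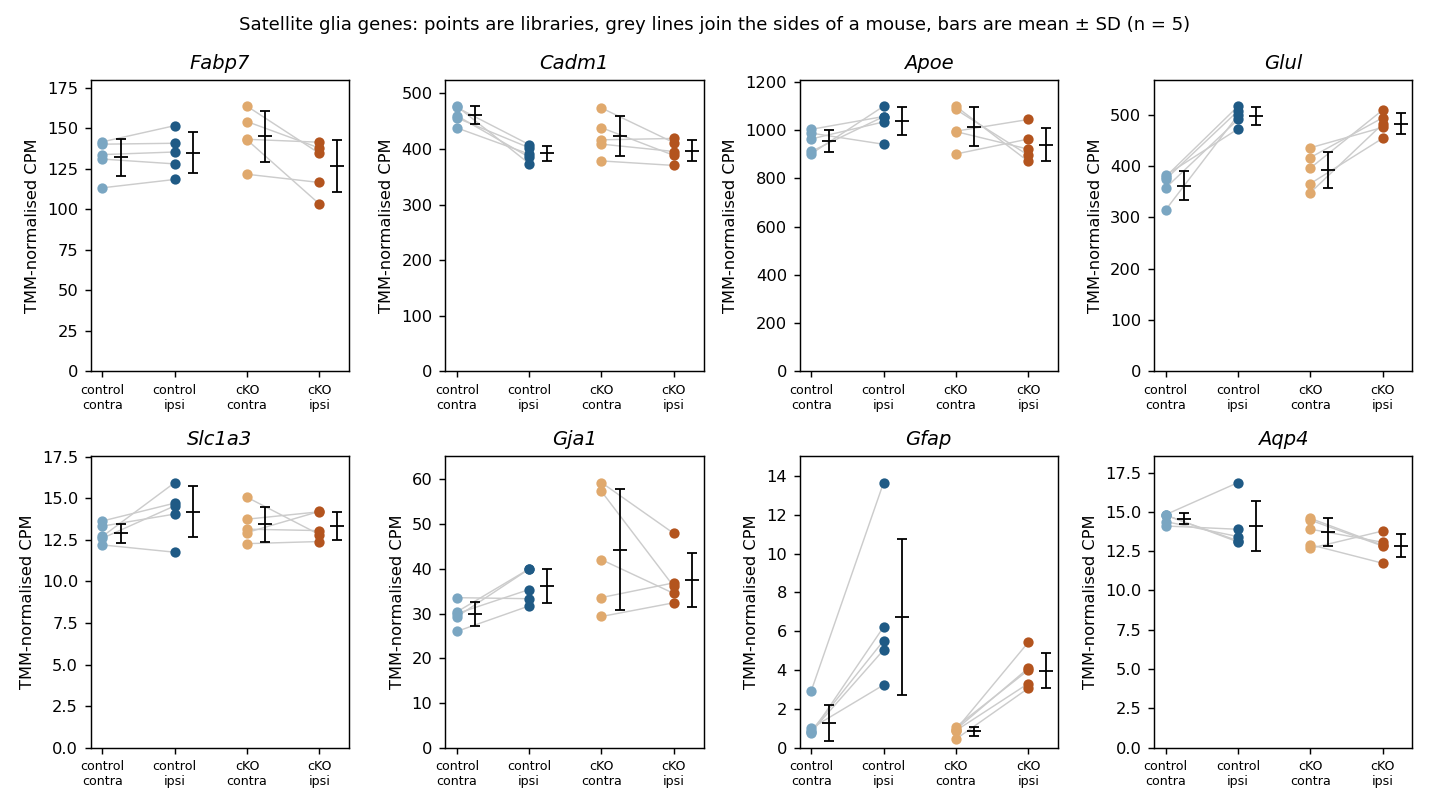
CPM of each of the 8 genes (vertical axes, TMM-normalised CPM, each starting at 0) in the 4 groups (horizontal axes), with 1 point per mouse and the mean ± SD over 5 mice. Gfap and Glul lie higher on the lesioned side in both genotypes, Cadm1 lies lower on that side in controls, and mouse H96 is the highest Gfap point on both sides of the control mice.

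In control mice, nerve transection changed 3 of the 8 genes: Gfap and Glul rose and Cadm1 fell. Of all genes tested, 29.9% were called in that comparison, 13.8% higher and 16% lower. In cKO mice 2 of the 8 changed, again Gfap and Glul, both higher, where 31.3% of all genes were called, 16.2% higher and 15.1% lower. The median log2 fold change of the 8 genes was 0.13 in controls and -0.09 in cKO mice, against -0.0047 and -0.03 over all genes tested. Ranges of the sides did not overlap for the same 3 and 2 genes. Over all genes tested this was so for 11.3% higher and 12.3% lower in controls, and for 11.9% higher and 8.33% lower in cKO mice. The shares of called members were near those of all genes.

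Gfap, the intermediate filament gene whose appearance is the usual sign of a reacting satellite cell, had the largest change of the 8. Contralateral control ganglia held 0.856, 0.820, 1.00, 2.94 and 0.735 CPM and ipsilateral ones 5.52, 5.04, 3.23, 13.7 and 6.22 CPM. In the cKO mice the contralateral values were 0.932, 0.938, 1.07, 0.446 and 0.881 CPM and the ipsilateral values 5.43, 4.10, 4.00, 3.06 and 3.31 CPM. Every lesioned side was above every contralateral side of the same genotype, with 1 control mouse, H96, far above the others on both sides. The means went from 1.27 ± 0.937 to 6.74 ± 4.03 CPM in controls, a log2 fold change of 2.38 (SE 0.415, adjusted p = 0.0002409, edgeR). In cKO mice they went from 0.852 ± 0.237 to 3.98 ± 0.922 CPM, a log2 fold change of 2.22 (SE 0.427, adjusted p = 0.0006044). Within mice the ipsilateral level was 3.22 to 8.46 times the contralateral one in controls and 3.75 to 6.86 times in cKO mice. The gene stayed a low one, with 37 to 1173 counts per library.

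Without mouse H96 the control means were 0.854 ± 0.112 and 5.00 ± 1.28 CPM (n = 4), and the log2 fold change was 2.56 (adjusted p = 4.615e-07). Markers of central nervous system glia did not move together in the ipsilateral library of that mouse. Mobp, Mlc1 (44.3 CPM), Agt (6.38) and Ermn (0.512) were above the other 4 control ipsilateral libraries. Mog (0.0466) was below them, and Hapln2, Opalin, Itih3, Fgfr3 and Aldh1l1 were within their range. In the contralateral library Agt was also above the other controls, at 6.69 CPM against 5.84 to 6.12. Mobp, a myelin gene of oligodendrocytes, was at 9.41 CPM in the ipsilateral library of H96, against 0.454 to 2.95 in the other 4 control ipsilateral libraries, and Aqp4 was at 16.9 there. In the contralateral library of H96, where Gfap was also the highest of its group, Mobp was at 0.713 CPM, against 0.417 to 1.29 in the other 4, and the marker sum was 58.9 CPM. The summed level of the 10 such markers was 57.3 to 61.7 CPM in control contralateral, 58.6 to 80.8 in control ipsilateral, 50.7 to 58.4 in cKO contralateral and 61.1 to 64.2 in cKO ipsilateral libraries, with H96 at the top of the control ipsilateral range. Most of that sum was Mlc1 and Aldh1l1, at a mean of 35.2 and 14.8 CPM. Of the defining oligodendrocyte markers, Mog was at most 0.180 CPM and Opalin was at 0 in 17 of 20 libraries. In controls 4 of the 9 markers that could be tested rose on the lesioned side and 0 fell, where 13.8% of all genes rose and 16% fell. In cKO mice 2 rose and 1 fell, where 16.2% of all genes rose and 15.1% fell. Without mouse H62, 5 were called in cKO mice. The markers that rose were Itih3, by 1.22 in controls and 1.56 in cKO mice, and Aldh1l1, by 0.32 and 0.34, in all 10 mice and without overlap. In controls Mobp, by 2.08, and Mog, by 1.89, also rose. The Mobp value included the 9.41 CPM of H96, and Mobp was higher ipsilaterally in 4 of 5 control mice, with overlap of the sides. Across 20 libraries Gfap and the marker sum had a correlation of r = 0.76, and of 0.37 within groups; with the sum of 12 macrophage markers it was 0.50 and 0.57. With the endothelial sum it was 0.50 and 0.20, with the neutrophil sum 0.28 and 0.37, and with the neuron sum -0.35 and -0.45. The part of any of these cells in the Gfap values was not tested.

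Promoters are shown of the genes that rose, and of Slc1a3 and Gja1, which were not called in either genotype in the fit of all libraries. Motifs of STAT and AP-1 factors were searched because STAT3 and AP-1 factors act in the response of ganglia to nerve injury. Slc1a3 and Gja1 are the uncalled genes whose promoter held a match. Those of Fabp7 and Apoe, also not called, held none and are not printed. Each promoter shown runs from 250 bases before to 50 bases after a start site of RefSeq, build GRCm38.p6, 5′ to 3′ on the gene's strand. Such windows were found for 6 of the 8 genes. Capitals mark a match to the STAT motif TTCNNNGAA or the AP-1 motif TGANTCA, searched on both strands. Each motif reads the same on either strand, and the matches printed overlap no other.
Gfap, chr11:102897151-102897450, minus strand: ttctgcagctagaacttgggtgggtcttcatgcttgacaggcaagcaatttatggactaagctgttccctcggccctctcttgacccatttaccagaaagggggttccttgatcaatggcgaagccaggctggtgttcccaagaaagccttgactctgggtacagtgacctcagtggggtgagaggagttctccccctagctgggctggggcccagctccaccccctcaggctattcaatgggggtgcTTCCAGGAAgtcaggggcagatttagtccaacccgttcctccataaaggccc
Glul, chr1:153899679-153899978, plus strand: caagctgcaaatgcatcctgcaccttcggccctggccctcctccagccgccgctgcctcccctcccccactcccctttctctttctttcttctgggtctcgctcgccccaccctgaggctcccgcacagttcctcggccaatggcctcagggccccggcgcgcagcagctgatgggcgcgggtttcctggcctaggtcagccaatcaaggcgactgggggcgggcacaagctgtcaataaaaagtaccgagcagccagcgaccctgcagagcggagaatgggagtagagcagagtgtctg
Slc1a3, chr15:8710758-8711057, minus strand: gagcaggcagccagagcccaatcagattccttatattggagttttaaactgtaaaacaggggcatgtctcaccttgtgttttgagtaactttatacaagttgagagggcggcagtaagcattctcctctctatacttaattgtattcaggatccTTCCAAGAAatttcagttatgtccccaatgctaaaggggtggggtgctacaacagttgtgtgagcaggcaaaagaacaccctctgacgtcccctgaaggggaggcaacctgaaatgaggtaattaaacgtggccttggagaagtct
Gja1, chr10:56377050-56377349, plus strand: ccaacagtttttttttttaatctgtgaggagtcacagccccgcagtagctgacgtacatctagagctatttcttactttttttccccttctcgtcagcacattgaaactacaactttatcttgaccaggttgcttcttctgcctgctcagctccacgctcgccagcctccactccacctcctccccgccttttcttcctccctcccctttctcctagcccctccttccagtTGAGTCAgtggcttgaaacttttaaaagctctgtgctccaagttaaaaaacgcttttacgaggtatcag
The Gfap window held 1 STAT match, starting at position -2 from the start site, and the Slc1a3 window 1, starting at -96. The Gja1 window held 1 AP-1 match, starting at -19. The Glul window held neither, nor did the windows of Fabp7 and the 3 starts of Apoe. Of 32851 mouse promoter windows of the same length, 8.3% held the STAT motif and 7.81% the AP-1 motif.

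Glul makes glutamine synthetase, the enzyme with which satellite glia turn glutamate and ammonia into glutamine. Its level was 379, 374, 357, 315 and 382 CPM in contralateral and 516, 507, 491, 499 and 472 CPM in ipsilateral control ganglia. The cKO mice had 348, 396, 435, 366 and 416 CPM contralaterally and 482, 509, 475, 454 and 494 CPM ipsilaterally. The sides did not overlap in either genotype. The rise was from 361 ± 27.8 to 497 ± 16.9 CPM in controls (log2 fold change 0.46, SE 0.0572, adjusted p = 2.467e-06, edgeR) and from 392 ± 35.8 to 483 ± 20.6 CPM in cKO mice (0.30, SE 0.0571, adjusted p = 0.0003515). Within mice the ratio was 1.24 to 1.59 in controls and 1.09 to 1.38 in cKO mice. The correlation of Glul with the endothelial sum was r = 0.63 over 20 libraries and 0.37 within groups. With the sum of fibroblast markers it was 0.26 and 0.61, and with the neuron sum -0.26 and -0.03. The part of these cells in the Glul values was not tested. The exons of Glul share 116 bases with the opposite-strand gene Teddm2 and 93 bases with Mir8114; these are 3.49% and 2.8% of its 3323 exon bases, and the strand setting of the counting is not given in the sources used here.

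Slc1a3, the transporter that takes glutamate into glia, did not pass the test in either genotype in the fit of all libraries. Its levels were 13.3, 13.6, 12.2, 12.7 and 12.6 CPM in contralateral and 14.1, 14.7, 11.8, 15.9 and 14.5 CPM in ipsilateral control ganglia. The values in cKO mice were 12.3, 13.1, 15.1, 13.7 and 12.9 and 12.4, 13.1, 12.8, 14.2 and 14.2 CPM. All 4 groups overlapped. The log2 fold change was 0.14 in controls, with an interval of ±2 SE from 0.0032 to 0.28 and adjusted p = 0.137, and -0.01 in cKO mice, from -0.15 to 0.13, with adjusted p = 0.933. Without mouse H65 the control value was called (0.19, adjusted p = 0.0295, edgeR). The cKO value was -0.0473 without mouse H100 and 0.0516 without H95. The correlation of Slc1a3 with the sum of 7 endothelial markers was r = 0.72 over 20 libraries and 0.68 within groups. With the fibroblast sum it was 0.53 and 0.57, with the macrophage sum 0.49 and 0.42, and with the Schwann cell sum 0.39 and 0.42. The part of these cells in the Slc1a3 values was not tested.

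Among 14 other genes of glutamate and glutamine handling, 5 rose and 1 fell on the lesioned side in each genotype. The shares over all genes tested were 13.8% higher and 16% lower in controls, and 16.2% and 15.1% in cKO mice. Slc1a2, the glutamate transporter GLT-1, went from 6.99 to 12.5 CPM in controls (log2 fold change 0.84, SE 0.0854) and rose by 0.79 on the log2 scale in cKO mice (SE 0.0854). Slc38a1, a glutamine carrier found mainly in neurons, rose by 0.86 and 0.89 on the log2 scale. Slc1a4, an exchanger of neutral amino acids, rose by 0.68 and 0.85. The median log2 fold change of the 14 genes was 0.20 in controls and 0.06 in cKO mice.

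Fabp7 and Apoe bind lipid, Fabp7 inside the glial cell and Apoe in the space outside it. Neither was called in the comparison of sides in the fit of all libraries, and the sign of the log2 fold change of both was positive in controls and negative in cKO mice. Fabp7 was at 113, 140.2, 134, 142 and 131 CPM contralaterally and 118, 141, 135, 152 and 128 CPM ipsilaterally in controls. It was at 122, 143, 164, 154 and 143 and 117, 103, 134, 138 and 141 CPM in cKO mice. The lesioned side was higher in 4 of 5 control mice and in 0 of 5 cKO mice, with overlap of the groups in both genotypes. The log2 fold change was 0.03 (SE 0.0925, adjusted p = 0.849) in controls and -0.20 (SE 0.0925, adjusted p = 0.120) in cKO mice. With each mouse as a block, which pairs the sides of an animal, the cKO value was -0.20 and was called lower (adjusted p = 0.0103, edgeR).

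Apoe was at 911, 1003, 963, 902 and 987 CPM contralaterally and 1055, 1056, 1033, 1098 and 941 CPM ipsilaterally in controls. In cKO mice the values were 900.4, 1098, 1085, 993 and 995 and 962, 870.1, 896, 921 and 1043 CPM. The groups overlapped, with the lesioned side higher in 4 of 5 control and 2 of 5 cKO mice. The log2 fold change was 0.12 (SE 0.0568, adjusted p = 0.119) in controls and -0.11 (SE 0.0568, adjusted p = 0.145) in cKO mice. The control value was called without mouse H97 (0.18) and with only the libraries compared (0.14), and the cKO value without mouse H61 (-0.16).

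Of 20 other genes of lipid binding and transport, 6 rose and 1 fell in controls, and 3 rose and 1 fell in cKO mice. Over all genes tested, 13.8% were called higher and 16% lower in controls, and 16.2% and 15.1% in cKO mice. Abca1, the pump that loads cholesterol onto apolipoproteins, went from 72.6 to 142 CPM in controls (log2 fold change 0.96, SE 0.0786) and from 65.5 to 148 CPM in cKO mice (1.18, SE 0.0790). Ppard, a nuclear receptor for fatty acids, rose by 0.76 and 0.81 on the log2 scale. Angptl4, an inhibitor of lipoprotein lipase, rose by 0.70 in controls and was at 0.38 in cKO mice, where it was not called (adjusted p = 0.0867).

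Gja1 encodes connexin 43, the gap junction protein through which satellite glia are coupled. It was at 33.5, 29.99, 26.01, 29.3 and 30.4 CPM in contralateral and 33.3, 35.4, 31.7, 39.96 and 39.97 CPM in ipsilateral control ganglia. The cKO contralateral values were 29.3, 42.04, 57.3, 33.6 and 59.3 CPM and the cKO ipsilateral ones 32.4, 34.5, 36.04, 36.9 and 47.9 CPM. The cKO contralateral group spread most, with H64, H95 and H100 well above every control contralateral library, H99 just above the highest control library, H62, and H61 within the control range. Between sides the log2 fold change was 0.27 in controls (SE 0.165, adjusted p = 0.244) and -0.24 in cKO mice (SE 0.165, adjusted p = 0.300). Neither was called in the fit of all libraries. With only the libraries compared, the control value was called (0.29, adjusted p = 0.0149, edgeR). Between genotypes, contralateral means were 29.8 ± 2.69 CPM in control and 44.3 ± 13.6 CPM in cKO mice (log2 fold change 0.57, SE 0.165, unadjusted p = 0.00301, adjusted p = 0.118, edgeR). DESeq2 called that difference (0.58, adjusted p = 0.0249), as did edgeR without mouse H99 (0.66) or without mouse H61 (0.69). Calls over all genes were 1041, 3326 and 174 in these fits, against 21 in the fit of all libraries.

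Markers of several other cell types moved with Gja1. The summed level of 7 fibroblast markers was 803 to 1358 CPM in control contralateral, 926 to 1519 in control ipsilateral, 937 to 2244 in cKO contralateral and 850 to 1560 in cKO ipsilateral libraries, and the cKO contralateral libraries of H64, H95 and H100 had the highest sums of their group, as for Gja1. All 7 markers had a positive log2 fold change in cKO against control contralateral ganglia, with a median of 0.85, 6 at an unadjusted p under 0.05 and 0 called by edgeR, or 3 with DESeq2 or without mouse H99. Of all genes, DESeq2 called 1041 there and edgeR without H99 3326. In the same comparison all 12 macrophage markers (median 0.32), all 6 neutrophil markers (median 0.80) and all 7 endothelial markers (median 0.12) were also positive, with 0 called by edgeR, DESeq2 or limma-voom and 0, 0 and 1 at an unadjusted p under 0.05. Over 20 libraries the correlation of Gja1 with the fibroblast sum was r = 0.83, and 0.78 within groups. With the macrophage sum it was 0.55 and 0.54, with the endothelial sum 0.53 and 0.50, and with the neutrophil sum 0.45 and 0.36. Contralateral sums of controls and cKO mice were 95.4 to 179 and 95.7 to 246 CPM for macrophages, 87.7 to 123 and 102.5 to 150.04 for endothelium, and 39.95 to 130.01 and 22.4 to 201 for neutrophils. The 3 genes most like Gja1 over libraries included Aebp1, a gene of connective tissue matrix. The part of these cells in the Gja1 values was not tested.

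**Figure D2:**
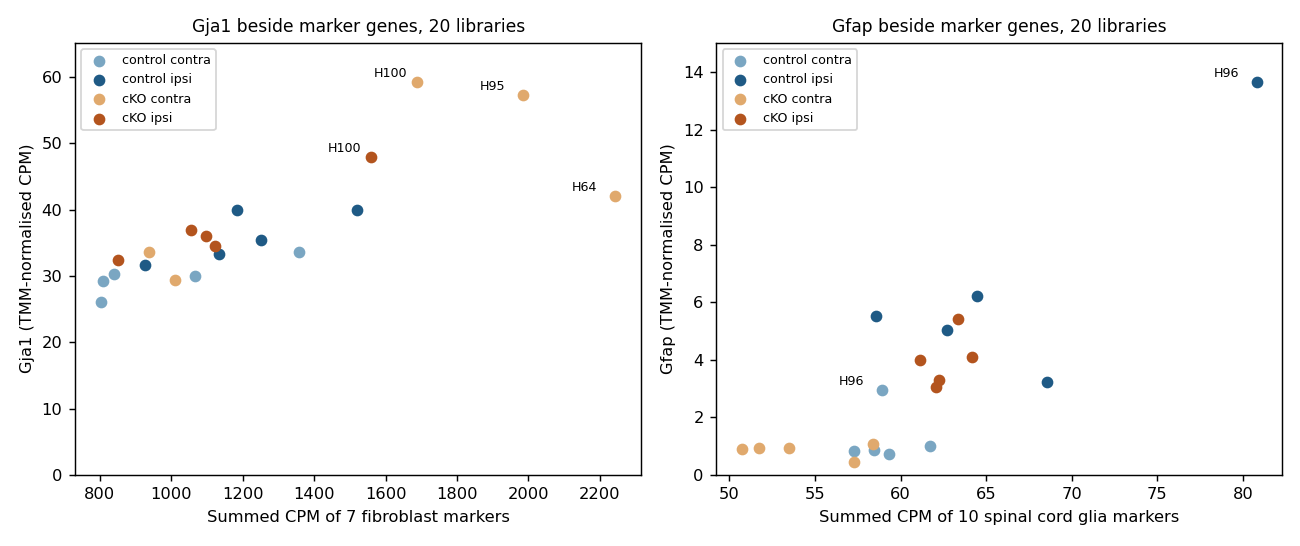
Left, Gja1 (TMM-normalised CPM) against the summed CPM of 7 fibroblast markers; right, Gfap against the summed CPM of 10 central nervous system glia markers; each point is 1 of 20 libraries, coloured by group. Gja1 is highest in the cKO contralateral libraries with the highest fibroblast sums (r = 0.83), and the ipsilateral library of H96 stands at the top right of the Gfap plot.

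Of 11 other connexin and pannexin genes, 2 rose and 2 fell in each genotype. For comparison, 13.8% of all genes tested were called higher and 16% lower in controls, and 16.2% and 15.1% in cKO mice. Gjd2, the connexin of neuronal gap junctions, fell from 3.12 to 1.79 CPM in controls (log2 fold change -0.80, SE 0.131) and from 3.41 to 1.68 CPM in cKO mice (-1.02, SE 0.131). Gjc1, connexin 45, rose by 0.52 and 0.43 on the log2 scale. Panx2 fell by 0.25 and 0.16, and Panx1, a channel for ATP release, rose by 0.14 and 0.33. The connexins Gjb2 and Gjb6, known from the leptomeninges and fibroblasts as well as from astrocytes, differed between genotypes contralaterally by 1.33 (SE 0.507, adjusted p = 0.194) and 2.20 (SE 0.758, adjusted p = 0.157) and were not called. Of the 11 genes edgeR called 0 in that comparison, with 3 at an unadjusted p under 0.05, while DESeq2 called 2, edgeR with genes below a mean CPM of 1 dropped or without mouse H61 called 1, and edgeR without mouse H99 called 2. Of all genes, these alternatives called 1041, 45, 174 and 3326 in that order, against 21 in the fit of all libraries.

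Cadm1, an immunoglobulin-type adhesion molecule used by glia and neurons, was lower on the lesioned side of all 5 control mice. Its control levels were 456, 459.7, 474, 438 and 477 CPM contralaterally and 402, 385, 408, 391 and 374 CPM ipsilaterally, without overlap. The cKO values were 438, 378, 409, 474 and 416 and 388, 370.3, 395, 411 and 419 CPM, with overlap, and 1 of the 5 cKO mice was higher on the lesioned side. It fell from 461 ± 15.8 to 392 ± 13.6 CPM in controls (log2 fold change -0.23, SE 0.0477, adjusted p = 0.0006703, edgeR). The means in cKO mice were 423 ± 35.5 and 397 ± 19.2 CPM (log2 fold change -0.09, SE 0.0476, adjusted p = 0.154). The difference between these responses was 0.14 (SE 0.0674, adjusted p = 0.510) and was not called. The summed level of 12 neuron markers was 12498 to 14251 CPM in control contralateral, 12453 to 13948 in control ipsilateral, 12320 to 14499 in cKO contralateral and 11896 to 13058 in cKO ipsilateral libraries. Its mean was 13414 and 13328 CPM on the contralateral and ipsilateral side of controls, and 13303 and 12523 CPM in cKO mice. Of these markers 4 fell in controls, with a median log2 fold change of -0.02 over the 12, and 3 fell in cKO mice, with a median of -0.10, and 0 rose. The shares of all genes called lower were 16% in controls and 15.1% in cKO mice. Rbfox3 was at -0.27 in controls and -0.15 in cKO mice, Isl1 at -0.37 and -0.35, and Scn9a at -0.29 and -0.09, the last value not called. The cKO count was 1 with only the libraries compared and 5 with limma-voom. Within groups the correlation of Cadm1 with the neuron sum was r = 0.66, and with the sum of 6 neutrophil markers r = -0.70. With the macrophage sum it was -0.63, with the endothelial sum -0.52 and with the fibroblast sum -0.51. With the Schwann cell sum it was -0.23, and with the sum of central nervous system glia markers 0.06. The part of neurons or of any of these cells in the Cadm1 values was not tested.

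Aqp4, the water channel of glial end feet, was at 14.4, 14.8, 14.1, 14.8 and 14.8 CPM in contralateral and 13.4, 13.1, 13.9, 16.9 and 13.2 CPM in ipsilateral control ganglia. It was at 14.5, 12.9, 14.6, 13.9 and 12.7 and 12.8, 11.7, 12.9, 13.1 and 13.8 CPM in cKO mice. The lesioned side was lower in 4 of 5 mice of each genotype, H96 being the control exception, and the groups overlapped. The log2 fold change was -0.05 (interval of ±2 SE from -0.17 to 0.08) in controls and -0.09 (from -0.22 to 0.03) in cKO mice, with adjusted p = 0.618 and 0.282. Of 11 other genes of adhesion and water channels, 3 rose and 3 fell in controls, and 2 rose and 2 fell in cKO mice. In the same fit 13.8% of all genes were called higher and 16% lower in controls, and 16.2% and 15.1% in cKO mice. With each mouse as a block, 7 of the 11 were called in cKO mice. Aqp11 fell by 0.45 and 0.35 on the log2 scale. Cadm2, a relative of Cadm1, fell by 0.41 in controls and by 0.30 in cKO mice. Dtna, a dystrobrevin of the complex that anchors Aqp4 in astrocytes, rose by 0.30 and 0.37.

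Between genotypes 0 of the 8 genes were called on either side by edgeR. Of all genes tested, 0.0735% were called contralaterally and 0.007% ipsilaterally. At an unadjusted p under 0.05 there were 2 of the 8 contralaterally, Gja1 and Cadm1, where 17.5% of all genes were under that limit. Ipsilaterally there were also 2, Apoe and Aqp4, against 2.36% of all genes. DESeq2 called 1 of the 8 contralaterally, where it called 1041 of all genes, and 0 ipsilaterally. Limma-voom called 0 of the 8 on both sides. Cadm1 was lower in cKO contralateral ganglia by 0.12 on the log2 scale (SE 0.0476, adjusted p = 0.190). On the lesioned side the log2 fold change of Apoe was -0.14 (SE 0.0568), that of Aqp4 -0.13 (SE 0.0625) and that of Gfap -0.76 (SE 0.389). Their adjusted p-values were all 0.99996. Without mouse H96 the value of Gfap was -0.33 and that of Aqp4 -0.06. The interval of ±2 SE for Gfap ran from -1.54 to 0.02.

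The response to the lesion did not differ between genotypes at the threshold for any of the 8 genes. In the test of that difference edgeR called 0% of all genes, DESeq2 and limma-voom called 0 of the 8, and 3 of the 8 had an unadjusted p under 0.05, against 9.8% of all genes. The difference, cKO minus control, was -0.23 for Apoe (SE 0.0803, unadjusted p = 0.00861, adjusted p = 0.485). The others under that limit were Gja1, at -0.51 (SE 0.233, unadjusted p = 0.0417, adjusted p = 0.505), and Cadm1, at 0.14 (SE 0.0674, unadjusted p = 0.0477, adjusted p = 0.510), the 1 gene of the 8 with a positive difference. Fabp7 was at -0.23 (SE 0.131, adjusted p = 0.568). For Glul it was -0.16 (interval of ±2 SE from -0.32 to 0.001) and for Gfap -0.16 (from -1.33 to 1.00). The Gfap value was -0.33 without mouse H96 and -0.06 without mouse H97. Beside the Gja1 value, all 7 fibroblast markers (median -0.98, 4 at an unadjusted p under 0.05), all 12 macrophage (-0.34), all 6 neutrophil (-0.72), all 7 endothelial (-0.25) and all 10 Schwann cell markers (-0.08) had a negative difference, with 0 of the last 4 lists at that limit. EdgeR, DESeq2 and limma-voom called 0 of these markers, and their part in the Gja1 value was not tested. The 2 injury responses and the contralateral comparison of genotypes share libraries, so their values are given side by side only.

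**Figure D3:**
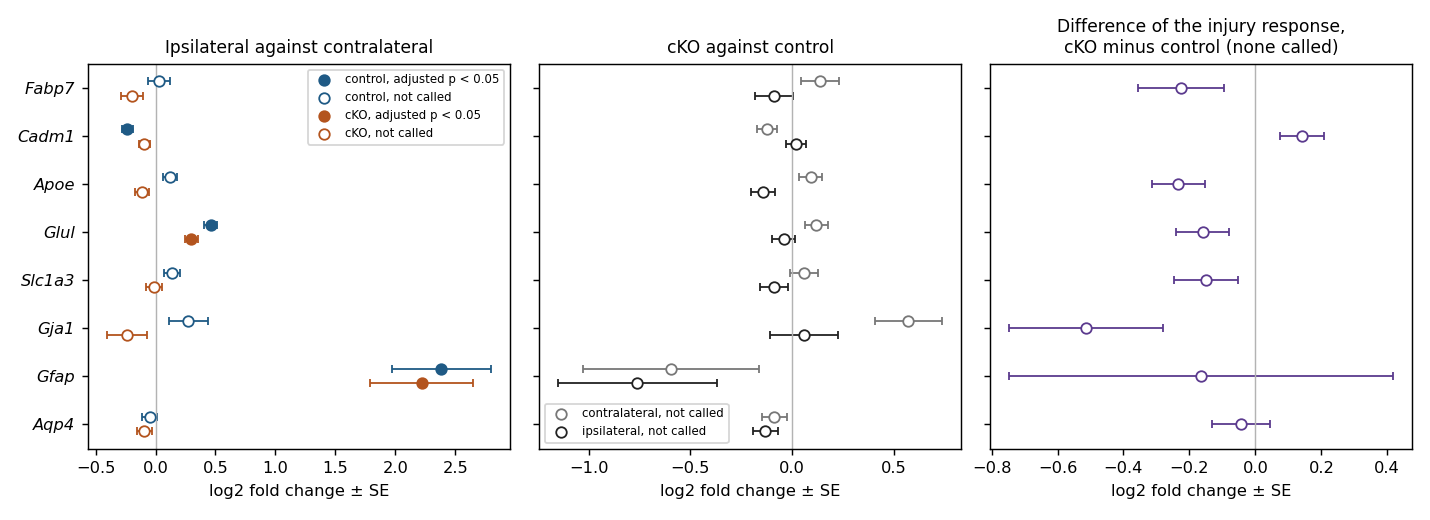
Log2 fold change ± SE of the 8 genes (horizontal axes) in the comparison of sides in each genotype, of genotypes on each side, and of the response to injury between genotypes; filled points were called at an adjusted p under 0.05. The filled points are Gfap, Glul and Cadm1 in controls and Gfap and Glul in cKO mice, and no point of the genotype comparisons is filled.

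Among 20 further genes of satellite glia, 9 rose in controls and 0 fell, with a median log2 fold change of 0.18, and in cKO mice 7 rose and 1 fell, with a median of 0.12. Beside this, 13.8% of all genes tested were called higher and 16% lower in controls, and 16.2% and 15.1% in cKO mice. The 8 called in cKO mice came to 4 without mouse H100, and to 5 with no filter or with only the libraries compared. Atp1b2, a subunit of the glial sodium pump, went from 79.96 to 120.3 CPM in controls (log2 fold change 0.59, SE 0.111) and from 84.3 to 115 CPM in cKO mice (0.45, SE 0.111). Kcnj10, the potassium channel Kir4.1 with which satellite glia buffer potassium, rose by 0.30 and 0.25 on the log2 scale. Gpr37l1, a receptor of glia, rose by 0.33 and 0.30, the matrix protein gene Fbln5 by 0.46 and 0.39, and Lgi4, a secreted protein of the glial lineage, by 0.35 and 0.40. S100b, a calcium-binding protein of glia, fell by 0.10 in cKO mice. Sox10, the glial lineage factor, was at 0.14 and 0.19 and was not called.

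Of 20 genes known from reactive astrocytes, 11 rose in controls and 12 in cKO mice, and 0 fell. Their median log2 fold change was 0.59 and 0.42. The shares of all genes tested that were called higher were 13.8% in controls and 16.2% in cKO mice, and 16% and 15.1% were called lower. Timp1, an inhibitor of matrix proteases, went from 2.77 to 16.6 CPM in controls (log2 fold change 2.58, SE 0.331) and from 4.93 to 16.4 CPM in cKO mice (1.73, SE 0.319). Socs3, a feedback inhibitor of STAT3 signalling, rose by 1.66 and 1.85 on the log2 scale, and Stat3 itself by 0.28 and 0.46. Vim, an intermediate filament gene of many cell types, rose by 0.52 and 0.35. Several of these genes are also used by injured neurons, macrophages or fibroblasts. Nes, C3, Cxcl10 and Lcn2 were not called in either genotype, with log2 fold changes in controls of 0.04, -0.25, -0.59 and 0.69. Between genotypes edgeR called 0 of the 20 satellite glia and 0 of the 20 reactivity genes on either side; at an unadjusted p under 0.05 there were 3 and 7 contralaterally and 2 and 0 ipsilaterally. DESeq2 called 0 and 4 of them contralaterally and 0 and 0 ipsilaterally, and limma-voom called 0 on both sides. Without mouse H99 edgeR called 1 and 6 of them contralaterally, and without mouse H61 0 and 1. Calls over all genes rose in these fits too, from 21 contralaterally to 1041 with DESeq2, 3326 without H99 and 174 without H61.

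**Figure D4:**
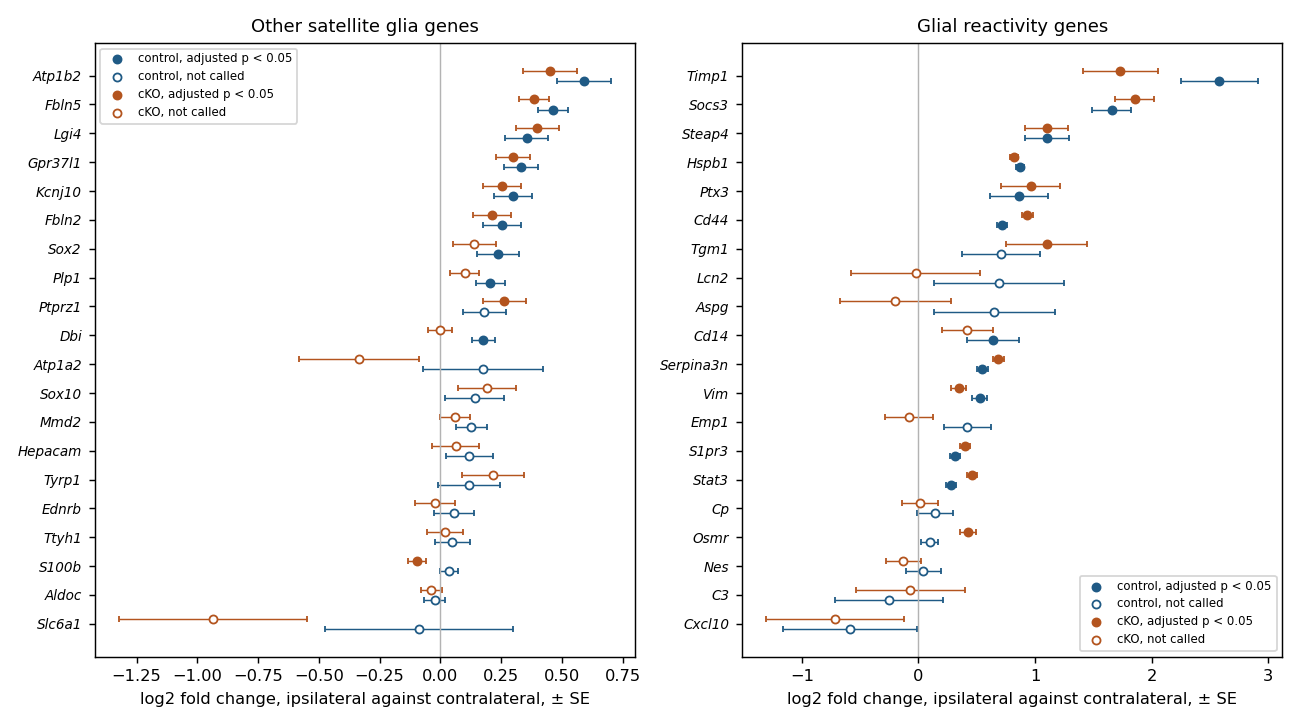
Log2 fold change ± SE, ipsilateral against contralateral (horizontal axes), of 20 further satellite glia genes (left) and 20 genes known from reactive astrocytes (right) in control and cKO mice; filled points were called at an adjusted p under 0.05. On the right 11 control and 12 cKO points are filled, all above 0, with Timp1 and Socs3 at the top.

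Markers of other cell types of the ganglion were counted in the same way. Beside them, 13.8% of all genes tested were called higher and 16% lower in controls, and 16.2% and 15.1% in cKO mice. Of 10 Schwann cell markers edgeR, DESeq2 and limma-voom called 0 between sides in either genotype, and 0 and 1 had an unadjusted p under 0.05. Of 12 macrophage markers 2 rose in controls, Fcgr1 by 1.10 and Mrc1 by 0.79 on the log2 scale, and edgeR called 0 in cKO mice, where 0 had an unadjusted p under 0.05. The control macrophage count was 0 without mouse H62, H63 or H97, 1 without H96 or with no filter, and at most 3 with a mouse left out. Of 7 endothelial markers 3 rose in controls and 1, Esam, in cKO mice; the control count was 1 without mouse H96 or H97 and 5 with mouse as a block or with limma-voom. Of 7 fibroblast markers all were positive in controls (median log2 fold change 0.34, 0 called, 1 at an unadjusted p under 0.05) and 1 in cKO mice (median -0.64), where Dpt was called lower (-1.22, SE 0.354). DESeq2 and limma-voom called 1 fibroblast marker in controls and edgeR on only the libraries compared called 2, and edgeR called 0 in cKO mice without mouse H61 or H64 and 2 without H99. Of 6 neutrophil markers 6 were positive in controls (median 0.60) and 0 in cKO mice (median -0.11), with 0 called by edgeR, DESeq2 or limma-voom and 0 at an unadjusted p under 0.05 in either genotype. These values stand beside the log2 fold changes of Fabp7, Apoe and Gja1, which were also positive in controls and negative in cKO mice, and beside the rise of Gfap and Glul, and their part in these was not tested.

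Likeness between genes was measured as Pearson's r of log2 levels over the 20 libraries, among 13103 genes at a mean of at least 5 CPM, as a description of libraries that share injury state and depth. Among the genes closest to Gfap were Btg1 (r = 0.936) and Ahr (0.928), and closest to Cadm1 were Kcnd1 (0.970), Pde11a (0.965) and Tmem132e (0.964). Glul was nearest to Teddm2 (0.984) and Mir8114 (0.979), which share exon bases with it, and then to Slc23a2 (0.963). Gja1 was nearest to Aebp1 (0.940), Tfpi (0.939) and Ccnd2 (0.937), and Apoe to mt-Co2 (0.882), Pebp1 (0.876) and Gm47438 (0.855). Aqp4 was nearest to Cyp2j6 (0.806), Slc1a3 to Foxo1 (0.799) and Fabp7 to Atp5o (0.776). Among the 8 genes themselves, after group means were removed, the highest correlations were those of Glul with Gja1 (0.60), Fabp7 with Apoe (0.56) and Slc1a3 with Gja1 (0.55), and the lowest was that of Cadm1 with Gfap (-0.49). Gfap and Glul, which rose together with injury, had a correlation of 0.74 over the 20 libraries and of -0.23 within groups.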

How the data were processed

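Exonic counts per gene were deposited by the authors as whole numbers without normalization, 1 column per library, and all 20 columns were assigned to groups by their library names. Stranded mRNA libraries were read as paired 150 bp reads, per the labels' protocols. HISAT2, Picard and the builds mm10 and mm39 are named in the submitters' processing notes with no role; the counting program, annotation and strand setting are not given in the sources used here. The protocol, which describes sciatic nerve transection, was followed where a label field names spinal cord injury, and the library name was used where a title shortens a mouse number.

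Symbols and exon lengths came from GENCODE M21. Counts were filtered with filterByExpr (minimum count 10, minimum total 15) and tested with edgeR 4.0.16 under R 4.3.3 (TMM scaling, quasi-likelihood test with robust dispersion), fitting 4 group means to 20 libraries. Comparisons, 5 in number, were sides in each genotype, genotypes on each side, and the difference of injury responses, with Benjamini-Hochberg adjustment over 28564 genes. The code was tested on simulated data. Depth was 76.2 to 118.5 M counts. Intervals of ±2 SE come from this unpaired fit, in which the 4 groups share the dispersion estimate of a gene. They are not the spread of the mice of a single comparison. Both libraries of a mouse came from 1 animal, so the mouse number pairs them; deviations from group means of both sides had a median correlation of 0.29, above 0.1 in 8 of 10 mice. Alternatives were other scaling and filters, DESeq2 1.42.0, limma-voom (limma 3.58.1), fewer libraries, a block for mouse, a covariate for the range of mouse numbers, and each mouse left out. The deposited FPKM table was not used. Members, lists and tests were chosen with earlier results of these data known. From each list, the 3 genes called with the largest absolute log2 fold change at a mean of at least 1 CPM were named, and further list genes were named after their values were seen; 2 genes that these rules name are not reported here.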

Additional observations from a re-analysis of the deposited data

Results flagged for a closer look

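In 4 of 48 groups of 5 values the highest library stood further from the others than Dixon's 95% limit of 0.71 (the gap to the nearest value divided by the range), where chance gives about 1 in 20. Gfap in mouse H96 did so among contralateral controls (0.878) and among ipsilateral controls (0.713). Aqp4 in the ipsilateral library of H96 did so too (0.787). Gja1 in mouse H100 did so among ipsilateral cKO libraries (0.713). Beside these values, Mobp was at 9.41 CPM in the ipsilateral and 0.713 CPM in the contralateral library of H96; its part in them was not tested.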

How the results depend on the processing

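The calls of Gfap, Glul and Cadm1 between sides in controls, and of Gfap and Glul in cKO mice, kept their direction and their side of the threshold under the 18 alternatives run. With mouse as a replicate block, Fabp7 in cKO mice was called lower (-0.20, adjusted p = 0.0103, edgeR), as with the range of mouse numbers as covariate (-0.20, adjusted p = 0.0469); the block changed no other call of the 8 genes. With only the libraries compared, 5 of the 8 genes were called between sides in controls, Apoe (0.14) and Gja1 (0.29) being added. Genes called between genotypes contralaterally, 21 of all tested, came to 1041 with DESeq2, 50 with no filter, 45 when genes below a mean CPM of 1 were dropped and 2 with only the libraries compared, and ranged from 4 without H95 to 3326 without H99, with 174 without H61; members called were 1 with DESeq2 and ranged from 0 to 2 (Gja1 0.66 and Cadm1 -0.17 without H99). Genes called in the difference of injury responses came to 11 with DESeq2 and ranged from 0 to 43 (without H99). Without H99, edgeR called 6 of 14 glutamate, 3 of 20 lipid, 2 of 11 connexin and pannexin and 1 of 11 adhesion and water genes between genotypes contralaterally. Reversed values were small: Slc1a3 in cKO mice was 0.0070 with no filter, 0.0081 with only the libraries compared and -0.0473 to 0.0516 with a mouse left out. In ipsilateral ganglia with a mouse left out, Cadm1 between genotypes was -0.0019 to 0.0423 and Gja1 -0.0455 to 0.106, and the Aqp4 difference of responses was -0.0966 to 0.0183. Slc1a3 in controls was called without H65 (0.19). The causes of these changes were not tested. Depth limits Gfap most, with 37 counts in the lowest library.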
